A study of Mus musculus with 34 samples.

Results

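HDAC3-only promoter sites are stretches of mouse liver chromatin at which the histone deacetylase HDAC3 was found next to a gene start without the corepressor PROX1. They were chosen by the peak calls of both factors and by position. A peak of the HDAC3 list was taken when a PROX1 peak covered less than 50% of its length and its centre lay within 1 kb of the transcription start site (TSS) of a protein-coding transcript in mm9. The rule found 230 peaks, each 200 bp wide. They make up 19.0% of the 1208 HDAC3-only peaks, and they belong to 21247 HDAC3 peaks and 28631 HDAC3 or PROX1 peaks in all. Of the 20039 co-bound peaks, 1585 lay as near to a TSS, and of the 7384 PROX1-only peaks 561 did. The other 978 HDAC3-only peaks are called distal.

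Both factors were mapped by ChIP-seq, which sequences DNA precipitated with an antibody against the factor, in livers of control C57B/6 male mice aged 10 weeks and killed at zeitgeber time 10. The labels name 3 libraries for each of these factors. HNF4α came from 2 libraries of *Hnf4α* floxed livers of the same age and time that kept HNF4α, so its peaks are from other animals than those of HDAC3. Per the paper, these floxed control livers were infected with a virus carrying *Egfp*. The replicates of a factor were pooled before its peaks were called, and the lists carry no read counts, so neither depth nor the spread between livers is known. Intervals and tests over peaks cover counting error only, and neighbouring peaks are not independent. An HDAC3-only peak is one at which PROX1 missed its calling limits, which is not the same as no PROX1. No member shared a base with a PROX1 peak.

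HDAC3 is the catalytic subunit of the NCoR and SMRT corepressor complexes, which nuclear receptors bring to DNA. In liver the heme receptor Rev-erbα, a repressor within the circadian clock, tethers the complex at elements named RevDR2 (a pair of nuclear receptor elements in tandem) or RORE (an AGGTCA element behind an A/T-rich stretch). HNF4α is a nuclear receptor of hepatocytes that binds its own tandem element. The E-box CACGTG is bound by helix-loop-helix factors, among them CLOCK-BMAL1, USF, MYC and the TFEB and TFE3 regulators of lysosomal genes.

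The E-box was more frequent in the members than in every other class compared and lay near the middle of their peaks, so its surroundings are printed first. The genes shown were chosen after their values were seen. They encode lysosomal proteins, autophagy and membrane fusion proteins, the cholesterol exporter ABCA1 and the lipid droplet coat protein PLIN5. Each line gives 30 bases of mm9 on the strand of the gene with the E-box in capitals.
Ctsa: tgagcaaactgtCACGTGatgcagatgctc
Cln3: gcaaccctcaagCACGTGatggaaggctca
Dpp7: ccgccagactatCACGTGatgctgccccgc
Spns1: gcggtggcaggtCACGTGttcaatccttgc
Gabarap: ttcgccacccgcCACGTGattctccgccct
Uvrag: tccagacttctgCACGTGacacgacatacc
Vps11: cgcctttcggttCACGTGatttcgcttccg
Zfyve26: atcaggtggcatCACGTGattcaaacaaac
Abca1: gggccatgtctcCACGTGctttctgctgag
Plin5: acctcggagctcCACGTGcaatctttgcct
In *Ctsa*, *Dpp7* and *Spns1* these E-boxes were centred 23 to 51 bp upstream of the TSS. For *Ctsa* this was an inner TSS, and the peak lay inside the gene as annotated. *Ctsa* encodes the protective protein cathepsin A, *Dpp7* a lysosomal dipeptidyl peptidase and *Spns1* a lysosomal transporter. In *Vps11*, a core subunit of the complexes that fuse endosomes with lysosomes, the E-box lay on the TSS itself. The positions of these sequences are chr2:164659249-164659278 for *Ctsa*, chr7:133726882-133726911 for *Cln3*, chr2:25211908-25211937 for *Dpp7* and chr7:133520972-133521001 for *Spns1*. The others lie at chr11:69804510-69804539 (*Gabarap*), chr7:106289972-106290001 (*Uvrag*), chr9:44169736-44169765 (*Vps11*), chr12:80397374-80397403 (*Zfyve26*), chr4:53172897-53172926 (*Abca1*) and chr17:56256642-56256671 (*Plin5*).

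HNF4 elements were less frequent in the members than in co-bound or PROX1-only promoter peaks. The members of 2 genes under high HNF4α scores are shown by 30 bases around the best HNF4 match in capitals, and *Sec24c* by its whole peak with HNF4 matches and E-box in capitals.
Aspdh: agagtcagGGGTCAAAGTCCAaagttcatt
BC004004: acgctcttTGGACTTGGCACCaggacagca
Sec24c: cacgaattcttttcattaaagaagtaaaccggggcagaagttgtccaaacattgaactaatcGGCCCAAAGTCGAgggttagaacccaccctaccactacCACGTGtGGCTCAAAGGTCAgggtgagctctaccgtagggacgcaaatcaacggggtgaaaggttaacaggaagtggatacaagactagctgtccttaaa
The *Aspdh* element at chr7:51720741-51720770 matched the consensus with 0 mismatches, and the *BC004004* element at chr17:29410970-29410999 with 1. The *Sec24c* peak at chr14:21493028-21493227 held matches with 2 mismatches on either side of its E-box.

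RevDR2 and RORE matches were in few members, 2.61% and 1.74%, though above the 0.677% and 0.159% of all TSS windows. The peaks below are the 200 bp at *Zc3h11a* (chr1:135558045-135558244), with a RevDR2 match that runs into an E-box, at *Cops6* (chr5:138603112-138603311), with a RevDR2 match, and at *Agpat3* (chr10:77760264-77760463), with a RORE match. The RevDR2, RORE and E-box matches are in capitals. The *Cops6* peak also held an HNF4 match with 2 mismatches and an AGGTCA, which are not marked.
Zc3h11a: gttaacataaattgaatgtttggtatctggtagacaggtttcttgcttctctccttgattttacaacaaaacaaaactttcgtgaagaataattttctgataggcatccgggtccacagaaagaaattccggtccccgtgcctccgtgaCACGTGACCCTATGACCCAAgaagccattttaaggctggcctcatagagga
Cops6: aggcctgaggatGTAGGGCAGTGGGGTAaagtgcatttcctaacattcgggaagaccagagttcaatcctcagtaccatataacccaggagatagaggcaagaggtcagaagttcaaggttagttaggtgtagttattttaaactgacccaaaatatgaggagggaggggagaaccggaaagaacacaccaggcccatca
Agpat3: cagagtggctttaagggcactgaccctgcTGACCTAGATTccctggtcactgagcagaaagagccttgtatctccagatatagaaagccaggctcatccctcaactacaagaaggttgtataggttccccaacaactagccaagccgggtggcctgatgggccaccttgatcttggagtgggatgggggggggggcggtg
Peaks at a clock gene, at the *Hnf4a* gene itself and at a fatty acid oxidation gene follow. The capitals mark the NF-Y element in *Per1* (chr11:68912047-68912246), a pair of HNF1 elements in *Hnf4a* (chr2:163372704-163372903), and an HNF4 match with 1 mismatch and an ETS element in *Acadl* (chr1:66909180-66909379).
Per1: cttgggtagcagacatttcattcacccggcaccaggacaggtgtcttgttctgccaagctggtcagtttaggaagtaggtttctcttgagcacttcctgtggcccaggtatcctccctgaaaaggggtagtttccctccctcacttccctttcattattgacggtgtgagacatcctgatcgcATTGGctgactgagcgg
Hnf4a: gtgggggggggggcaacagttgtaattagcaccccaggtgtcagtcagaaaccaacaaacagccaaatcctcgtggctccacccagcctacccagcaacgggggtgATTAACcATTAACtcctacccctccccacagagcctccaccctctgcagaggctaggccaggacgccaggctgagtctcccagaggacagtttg
Acadl: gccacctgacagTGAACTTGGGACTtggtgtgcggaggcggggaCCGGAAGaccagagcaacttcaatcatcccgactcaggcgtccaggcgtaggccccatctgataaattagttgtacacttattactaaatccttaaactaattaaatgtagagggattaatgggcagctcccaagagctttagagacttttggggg

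The members were grouped upstream of the TSS. Their centres had a median position of −95 bp, with quartiles at −324 and 134 bp, and 148 of 230 lay upstream. The bins from −400 to −200 bp and from −200 to 0 bp held 21.3% and 24.8% of them. Co-bound promoter peaks had 13.1% and 29.2% in the same bins, and their median was −100 bp. The centre lay within 100 bp of the TSS in 53 members (23.0%) and in 22.0% of co-bound promoter peaks, a difference of 1.09 percentage points (95% CI −4.31 to 7.27, p = 0.710, Pearson's chi-square test, two-sided, as for all comparisons of shares below). It lay downstream of the TSS in 35.7% and 34.9%, a difference of 0.763 points (95% CI −5.61 to 7.55, chi-square p = 0.821). Neither position differed from co-bound promoter peaks beyond counting error, and intervals of this width leave room for differences of several points either way. Of PROX1-only promoter peaks 13.4% lay within 100 bp of the TSS, a difference of 9.67 points (95% CI 3.83 to 16.1, chi-square p = 7.93e-04). Downstream of it lay 40.5% of them, a difference of −4.81 points (95% CI −12.0 to 2.71, chi-square p = 0.208).

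**Figure D1:**
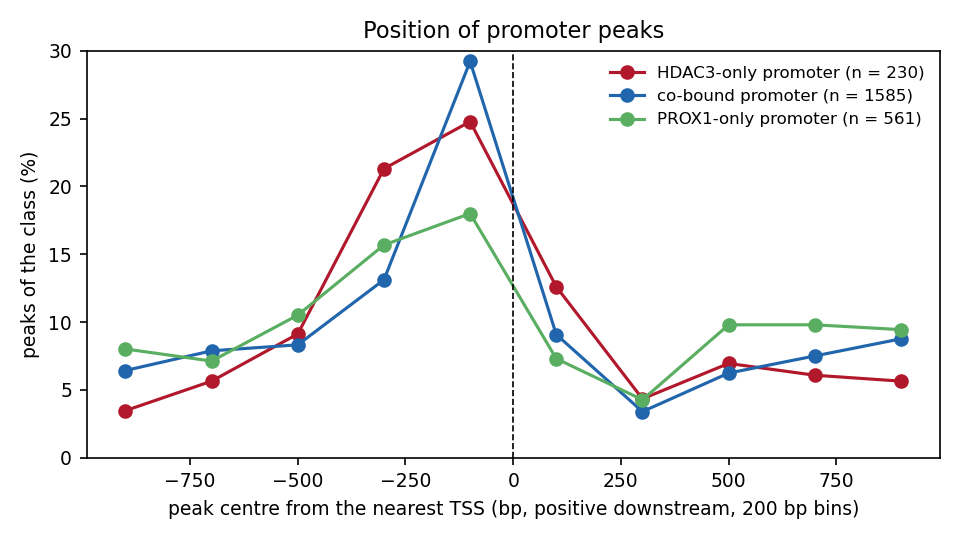
The plot shows the share of promoter peaks (%, vertical axis) in 200 bp bins of the distance from the nearest TSS (bp, positive downstream) for 230 HDAC3-only, 1585 co-bound and 561 PROX1-only peaks, with points at bin centres joined by lines. The 3 classes peak upstream of the TSS, the HDAC3-only class with 24.8% in the last 200 bp before it.

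The nearest TSS was not always the first of its gene. For 41 members the centre lay over 1 kb from the first base of the gene as annotated, so their positions refer to an inner TSS. Inner TSSs with a member closer to that base, as at *Ctsa*, are not in this count. These include *Per1* (3.43 kb inside the gene), *Lipe* (2.82 kb), *Ppargc1a* (13.8 kb), *Rxrg* (19.7 kb), *Hnf4a* (40.3 kb), *Rarb* (243.4 kb) and both members of *Agpat3* (54.5 and 54.9 kb).

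By the annotation of the centre, 113 members lay outside protein-coding transcripts, 81 in introns, 32 in UTRs and 4 in coding sequence. A TSS of the opposite direction lay within 1 kb upstream of the nearest TSS for 17 members (7.39%) and for 3.91% of co-bound promoter peaks. Most members, 204, had 1 protein-coding gene within reach, and 26 had 2 or more. The members nearest to the 1 kb limit were at *Thap8* (−990 bp) and *Fcna* (−992 bp). The HDAC3-only peaks just outside were at *Zfp787* (1003 bp) and *Mt2* (1014 bp). None of these 4 peaks touched an HNF4α peak.

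PROX1 peaks were often in the neighbourhood. The nearest PROX1 peak was centred at a median of 9.96 kb, within 10 kb for 115 members and within 1 kb for 31, the closest at 235 bp, and 45 members had none within 50 kb. HDAC3-only distal peaks had a median of 9.84 kb. A co-bound peak lay within 10 kb of 108 members. At the regulator of glucokinase *Gckr* the member was 268 bp from a PROX1 peak, and at *Per1* 789 bp. At the retinoid receptor gene *Rxrg* it was 226628 bp away.

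HNF4α covered few of the members. At least 50% of the peak was covered by an HNF4α peak in 24 members, 10.4% (95% Wilson CI 7.11 to 15.1). The share was 54.7% among co-bound promoter peaks, a difference of −44.3 points (95% CI −48.4 to −39.0, chi-square p = 4.03e-36), and 29.2% among PROX1-only promoter peaks, a difference of −18.8 points (95% CI −23.9 to −12.9, p = 1.69e-08). Distal HDAC3-only peaks had 14.8%. The difference from these, −4.39 points (95% CI −8.47 to 0.681, chi-square p = 0.0841), did not pass 0.05. HNF4α peaks are 85 to 168 bp wide, so a covered member and its HNF4α peak share most of their length. Any base was shared in 42 members (18.3%), against 63.2% of co-bound promoter peaks. An HNF4α peak was centred within 1 kb of 78 members (33.9%), against 73.2%.

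**Figure D2:**
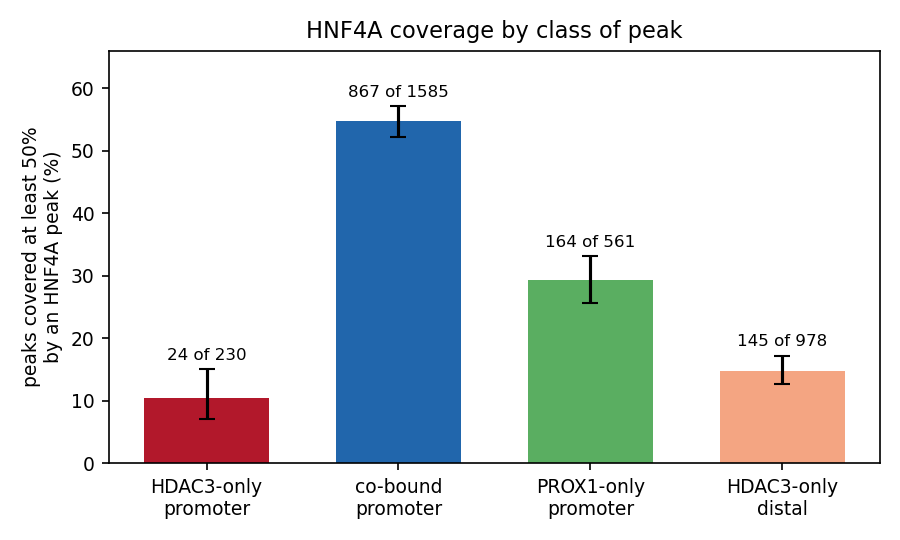
The bars give the share of peaks covered at least 50% by an HNF4α peak (%, vertical axis, from 0) in 4 classes of peaks, with 95% Wilson intervals as error bars and counts above them. The HDAC3-only promoter bar, 24 of 230, is the lowest, and its interval meets only that of the distal HDAC3-only peaks.

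The scores of the HNF4α peaks over the 24 covered members, a HOMER score whose scaling the list does not give, ran from 22.1 at *Tmbim1* through a median of 42.2 to 108.4 at *Aspdh*. The median over covered co-bound promoter peaks was 52.3 and over covered distal HDAC3-only peaks 31.1. After *Aspdh*, which encodes a protein with an aspartate dehydrogenase domain, the highest scores were 75.4 at *Sec24c*, a subunit of the COPII vesicle coat, 60.3 at *BC004004*, 59.4 at *Vps13d*, a lipid transfer protein, and 58.4 at the cytochrome P450 gene *Cyp2d9*. HNF4α covered 74.5% of the *Sec24c* peak and 82.0% of the *Aspdh* peak. At *Acadl* the coverage was 47.5%, just under the limit, by a peak of score 73.0.

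Coverage went with the HNF4 element inside the class. It was found at 10 of the 35 members with an HNF4 consensus match (28.6%, 95% CI 16.3 to 45.1) and at 14 of the 195 without (7.18%, 95% CI 4.32 to 11.7). Co-bound promoter peaks had 78.6% and 44.4%, so the members were lower with and without the element. None of the 31 members with a PROX1 peak within 1 kb was covered by HNF4α, which allows a share of up to 9.68% (3 counts of the total).

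Against a panel of 20 motifs, 6 (30%) differed from co-bound promoter peaks at an adjusted p under 0.05 (Benjamini-Hochberg over the panel), 4 of them more frequent in the members and 2 less. Against distal HDAC3-only peaks 6 (30%) differed, 3 in each direction, and against PROX1-only promoter peaks 8 (40%), 6 more frequent and 2 less. At an unadjusted p under 0.05 the counts were 10, 7 and 8. The comparison with PROX1-only promoter peaks was not repeated under other choices. Matches were sought on both strands of the 200 bp peak. The same search was run on 200 bp around all 45968 protein-coding TSSs. A match says that the letters are there and does not show that a factor bound.

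The HNF4 consensus, with up to 2 mismatches, was found in 35 members (15.2%) and 30.1% of co-bound promoter peaks, a difference of −14.9 points (95% CI −19.6 to −9.22, adjusted chi-square p = 2.80e-05). Distal HDAC3-only peaks had 22.6% (difference −7.38 points, 95% CI −12.3 to −1.60, adjusted chi-square p = 0.0458), a call that was lost under stricter matching, by Fisher's exact test over the panel and in 100 bp windows. All TSS windows had 6.32%. In windows 2 kb to either side of the members the share was 9.57%. The HNF6 element ATCGAT was found in 0 of 230 members, which allows up to 1.30% (3 counts of the total), in 4.23% of co-bound promoter peaks (adjusted chi-square p = 0.00690) and in 4.99% of PROX1-only promoter peaks (adjusted p = 0.00367). Distal HDAC3-only peaks had 5 matches in 978 (0.511%, adjusted chi-square p = 0.390) and all TSS windows 0.509%. C/EBP elements (TTGCGCAA, 1 mismatch allowed) were in 7.83% of members and 12.5% of co-bound promoter peaks, with an adjusted chi-square p of 0.0861. In 100 bp windows C/EBP was called, with a difference of −5.10 points (unadjusted chi-square p = 0.00746).

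RevDR2 and the element AGGTCA were less frequent in the members than in the distal HDAC3-only peaks. RevDR2, with up to 3 mismatches, was found in 6 members (2.61%) and in 8.59% of distal peaks, a difference of −5.98 points (95% CI −8.36 to −2.61, adjusted chi-square p = 0.00754). With the promoter window at 2 kb on both sides the difference was −3.34 points (unadjusted chi-square p = 0.0555). Co-bound promoter peaks had 1.32% (difference 1.28 points, 95% CI −0.285 to 4.28, adjusted chi-square p = 0.242) and all TSS windows 0.677%. With 2 kb around a TSS the difference from co-bound promoter peaks was 3.71 points and passed 0.05 (unadjusted chi-square p = 1.21e-06). PROX1-only promoter peaks had 1 match in 561 (0.178%, difference 2.43 points, 95% CI 0.799 to 5.399, adjusted chi-square p = 0.00367). These counts are small, and no other test or setting was tried against this class, for RevDR2 or for RORE below. In windows 2 kb to either side the RevDR2 shares were 1.52% for members and 1.96% for PROX1-only promoter peaks. Of the 6 member matches 1 lay within 25 bp of the peak centre, and of the 84 distal ones 36. All 6 members, at *Bet1*, *Cops6*, *Gm5919*, *Llgl2*, *Ubxn1* and *Zc3h11a*, had 3 mismatches, and they were named after their values were seen. HNF4α covered none of them. The element AGGTCA, which is part of many RORE, RevDR2 and HNF4 matches, was in 62 of the 230 members, in 44.4% of distal peaks (difference −17.4 points, 95% CI −23.6 to −10.6, adjusted chi-square p = 1.35e-05) and in 29.9% of co-bound promoter peaks (adjusted p = 0.450). RORE matches were in 4 members, at *Agpat3*, *Gm5919*, *Syne1* and *Tecpr2*, or 1.74%, beside 4.19% of distal peaks (adjusted chi-square p = 0.193), 0.946% of co-bound promoter peaks (adjusted p = 0.385) and 0.178% of PROX1-only promoter peaks (adjusted p = 0.0297). All TSS windows had RORE in 0.159% and AGGTCA in 8.87%. In windows 2 kb to either side of the members the shares were 0.435% and 17.2%. The members were not tested against either.

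Pairs of AGGTCA in the same direction, with up to 2 mismatches in all, were most frequent in the members at a spacer of 1 base, in 25 windows (10.9%). A spacer of 2 bases, that of RevDR2, was found in 12 members (5.22%), as many as spacers of 0 and 3 bases. In distal HDAC3-only peaks the spacer of 2 bases was the most frequent at 16.6%, followed by 1 base at 14.7%. In co-bound promoter peaks 1 base led with 11.8%, and 2 bases had 5.74%. All TSS windows had 2.06% at 1 base and 1.61% at 2 bases. These are shares without a test.

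The E-box was found in 26 members, 11.3% (95% CI 7.83 to 16.0). It was in 4.73% of co-bound promoter peaks (difference 6.57 points, 95% CI 2.91 to 11.4, adjusted chi-square p = 3.23e-04), in 4.60% of distal HDAC3-only peaks (difference 6.70 points, 95% CI 2.92 to 11.6, adjusted p = 5.03e-04) and in 3.21% of PROX1-only promoter peaks (difference 8.10 points, 95% CI 4.18 to 13.0, adjusted p = 1.29e-04). All TSS windows had 5.19%. In the windows 2 kb away from the members it was found in 1.74% of 460. Within 500 bp of a TSS, 25 of 164 members had it and 46 of 976 co-bound peaks.

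In the members the E-box lay near the middle of the peak, within 25 bp of the centre in 14 of 26. The same held for 16 of the 75 co-bound promoter peaks with an E-box (21.3%), 15 of the 45 distal ones (33.3%) and 7 of the 18 PROX1-only promoter peaks (38.9%), with no test of the difference. The bases beside it were counted too. The longer form TCACGTG was in 19 of the 26 members with an E-box (73.1%), beside 48.0% of such co-bound promoter peaks, 33.3% of PROX1-only promoter peaks, 44.4% of distal peaks and 57.6% of all TSS windows with an E-box. The palindrome TCACGTGA, the core of the element named for coordinated lysosomal expression, was in 13 of the 26, beside 6.67%, 11.1%, 8.89% and 16.2% in the same order. As a share of all windows the palindrome was in 5.65% of members, 0.315% of co-bound promoter peaks (5 of 1585), 0.409% of distal HDAC3-only peaks and 0.844% of all TSS windows. The longer forms were counted after the E-box result was seen and were not tested.

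**Figure D3:**
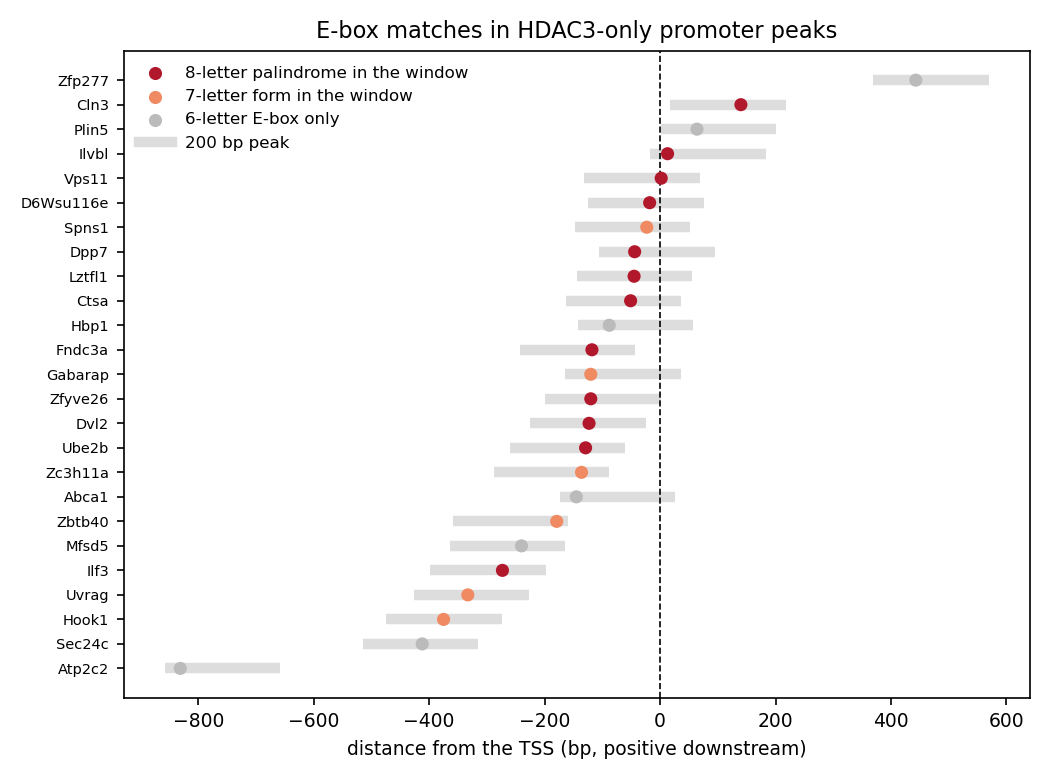
Each line is 1 of 25 of the 26 HDAC3-only promoter peaks with an E-box, named by its nearest gene, with the 200 bp peak in grey and the E-box nearest to its centre as a point against the distance from the TSS (bp, positive downstream). Red points mark the 12 windows with the 8-letter palindrome, orange those with the 7-letter form only and grey those with neither, and 23 of the 25 points sit between −412 and 140 bp.

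The members with an E-box differed from the rest of the class in other ways that are given as description. Their median distance to a PROX1 peak was 29.7 kb, against 7.76 kb for the 204 without one, and to an HNF4α peak 11.7 kb against 2.34 kb. An E-box was in 11 of the 45 members with no PROX1 peak within 50 kb and in 0 of the 31 with one within 1 kb. Only 4 of the 82 downstream members had one, and 22 of the 148 upstream. HNF4α covered 3 of the 26, at *Plin5*, *Sec24c* and *Zbtb40*. CpG-island-like windows made up 10 of the 26. Because the E-box holds a CpG, the comparison was repeated by composition. It was in 10 of 45 CpG-island-like members and 5 of 75 such co-bound peaks (15.6 points, chi-square p = 0.0126), and in 16 of 185 other members and 70 of 1510 other co-bound peaks (4.01 points, p = 0.0189). Against distal HDAC3-only peaks it turned direction in CpG-island-like windows, with 4 of 16 distal peaks (−2.78 points, chi-square p = 0.820), and was 4.39 points in the others (p = 0.0119).

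**Figure D4:**
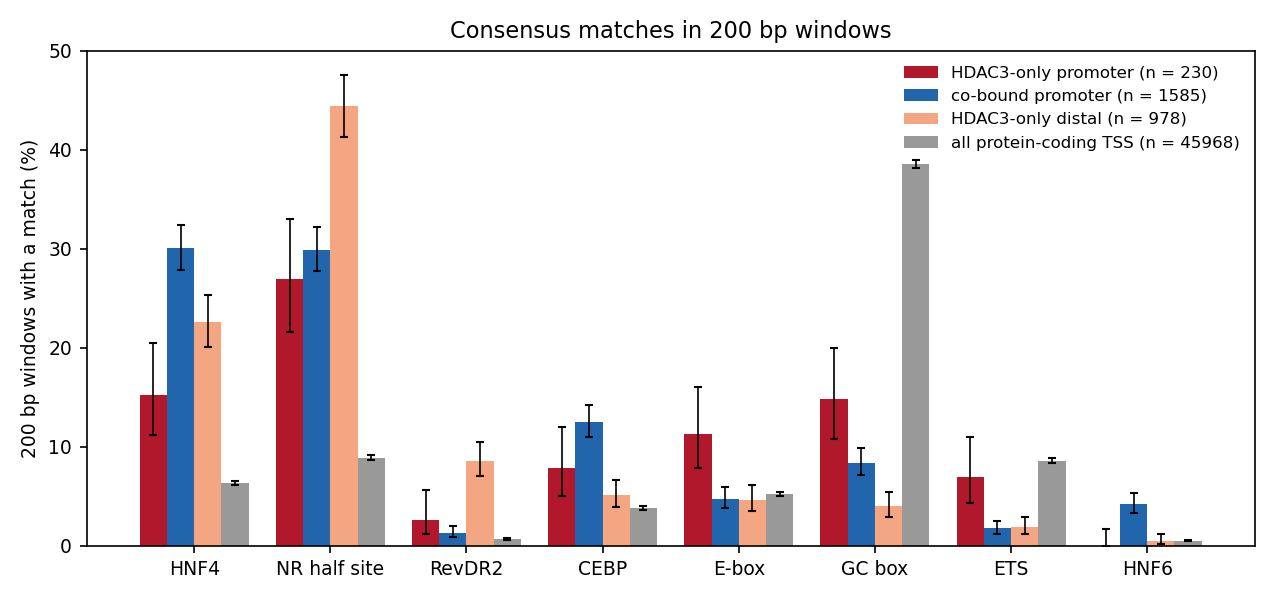
The bars give the share of 200 bp windows with a match (%, vertical axis, from 0) for 8 of the 20 motifs in 230 HDAC3-only promoter, 1585 co-bound promoter and 978 HDAC3-only distal peaks and in 45968 windows on all protein-coding TSSs, with 95% Wilson intervals as error bars. The members stand above both other peak classes at E-box, GC box and ETS and below both at HNF4.

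The GC box and the ETS element, which many promoters carry, were more frequent in the members too. The GC box GGGCGG was in 34 members (14.8%), against 8.39% of co-bound promoter peaks (adjusted chi-square p = 0.00690) and 3.99% of distal HDAC3-only peaks (adjusted p = 1.27e-08). The ETS element CCGGAAG was in 16 (6.96%), against 1.77% (adjusted chi-square p = 2.80e-05) and 1.84% (adjusted p = 1.62e-04). In 100 bp windows the ETS element was no longer called against either class, and only 1 of the 16 matches lay within 25 bp of the peak centre. All TSS windows had 38.6% with a GC box and 8.59% with the ETS element. The CRE TGACGTCA, with 1 mismatch, was in 10.4% of members and 6.12% of co-bound promoter peaks (adjusted p = 0.0474), a call that Fisher's exact test and 100 bp windows did not give.

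The members were richer in CpG than the other classes. A window was called CpG-island-like when its GC content was at least 50% and its CpG count at least 0.6 of that expected from its bases. Of the members 45 (19.6%, 95% CI 15.0 to 25.2) were, beside 4.73% of co-bound promoter peaks (difference 14.8 points, 95% CI 10.1 to 20.5, chi-square p = 2.67e-17), 1.64% of distal HDAC3-only peaks (difference 17.9 points, 95% CI 13.2 to 23.6, p = 5.51e-29) and 6.42% of PROX1-only promoter peaks (difference 13.1 points, 95% CI 7.98 to 19.0, p = 3.04e-08). All TSS windows, which are centred on the TSS as the peaks are not, had 48.4%. The share depended on the window, and over 1000 bp around the peak centre 100 of the 230 members and 204 of the 1585 co-bound promoter peaks were CpG-island-like. Their median GC content was 51.5% and their median CpG observed over expected 0.456. Co-bound promoter peaks had 48.5% and 0.282, and all TSS windows 59% and 0.607.

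HNF4α coverage was low in both kinds of window. It was 4.44% of the 45 CpG-island-like members against 38.7% of such co-bound promoter peaks (chi-square p = 3.38e-05), and 11.9% of the other 185 against 55.5% (p = 4.22e-29). Within 100 bp of the TSS 19 of 53 members were CpG-island-like, and farther out 26 of 177.

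**Figure D5:**
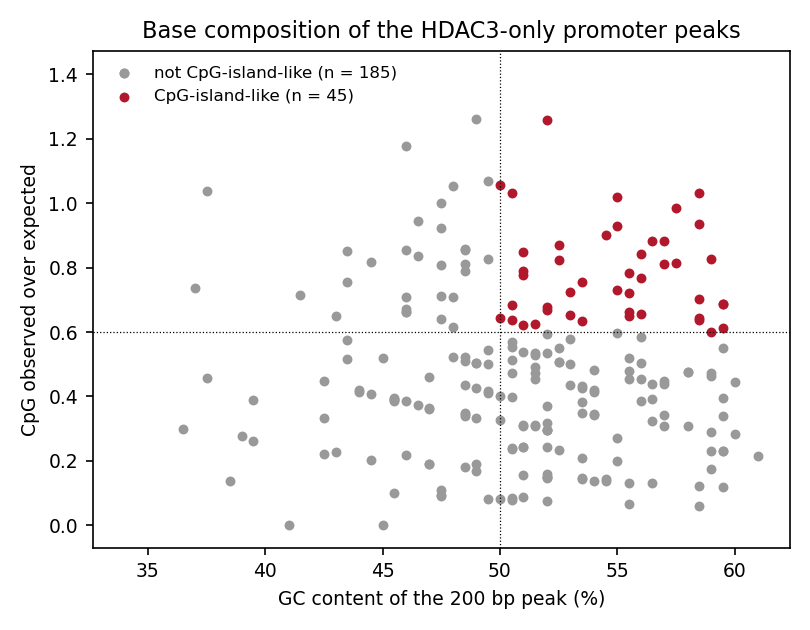
Each point is 1 of the 230 HDAC3-only promoter peaks by its GC content (%, horizontal axis) and its CpG observed over expected (vertical axis), with dotted lines at 50% and 0.6. The 45 red points past both lines are the CpG-island-like windows, and the 185 grey points are the rest.

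The members lay at 254 of 22367 protein-coding genes, or 1.14%. Co-bound promoter peaks lay at 1398 genes, or 6.25%, and 32 genes had both kinds. The genes with 2 members were *Acy3*, which encodes an aminoacylase, and *Agpat3*, an acyltransferase of phospholipid and triglyceride synthesis. The counts of gene lists below are to be read beside the share of 1.14%, and their co-bound counts beside 6.25%. They have no test, and they say nothing of expression, which was not measured by these lists.

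Among 22 genes of the clock and its direct regulators, *Per1* alone had a member, centred 303 bp upstream of an inner TSS. The co-bound promoter count of this list was 7. The nuclear receptor list had members at *Rarb* and *Rxrg*, both retinoid receptors, of 36 genes, and 15 hepatocyte transcription factors had 1 member, at *Hnf4a* 119 bp upstream of an inner TSS. HNF4α peaks were 5321 bp from that site. None of 6 genes of the HDAC3 corepressor complex had a member, as the share of 1.14% would give for so short a list.

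Several lists of lipid metabolism were counted. Of 18 lipid droplet and lipolysis genes 3 had one (16.7%), and 6 had a co-bound promoter peak. *G0s2*, an inhibitor of adipose triglyceride lipase, had its member 112 bp downstream of the TSS, *Lipe*, the hormone-sensitive lipase, 98 bp downstream of an inner TSS and *Plin5* 101 bp downstream. HNF4α covered 62.0% of the *Plin5* peak with a score of 44.3 and did not touch the other 2. Fatty acid oxidation had 4 of 24 genes with a member (16.7%) and 15 with a co-bound promoter peak. They were *Acadl* and *Acadvl*, acyl-CoA dehydrogenases for long and very long chains, and *Etfa* and *Etfb*, the subunits of the flavoprotein that takes up their electrons. Their centres lay at 571, 350, 796 and −256 bp from the TSS. The PROX1 peak nearest to *Etfa* was 578 bp away and that nearest to *Acadvl* 34953 bp. Of 14 triglyceride synthesis genes *Agpat3* had a member (7.14%) and 8 had a co-bound promoter peak.

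Fatty acid synthesis (18 genes), cholesterol synthesis and LDL uptake (23) and bile acid genes (14) had 0 members. For lists this short that is near what the share of 1.14% gives, so it is no result about these pathways. Co-bound promoter peaks lay at 4 (22.2%), 1 (4.35%) and 10 (71.4%) of their genes. In glucose metabolism 2 of 24 genes had one, *Gckr* 44 bp upstream and *Ppargc1a*, the PGC-1α coactivator of gluconeogenesis, 9 bp downstream of an inner TSS, and 13 had a co-bound promoter peak. Of 90 cytochrome P450 genes *Cyp2d9* had a member, 40 bp upstream, and 32 had a co-bound promoter peak.

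Of 32 immediate early and stress genes 3 had a member (9.38%). *Ier2* had it 14 bp upstream of its TSS, in a CpG-island-like window with a CRE, and *Gadd45g* 153 bp downstream. *Ddit3*, which encodes the stress factor CHOP, shares its member with *Mbd6*, the nearer gene at −832 bp. Among genes expressed in all cells there were members at *Ndufa4* and *Ndufs6* of 84 oxidative phosphorylation subunits (2.38%), at *Psmb3* of 39 proteasome subunits (2.56%) and at none of 80 ribosomal protein genes or 73 heat shock proteins and co-chaperones, to be read beside the same 1.14%. These sites lay at −183, −161 and −950 bp.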

How the data were processed

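The labels list 3 HDAC3, 3 PROX1 and 2 HNF4α ChIP-seq libraries from control livers. Per the methods, reads were aligned by the authors (Bowtie 0.12.7, mm9), stripped of duplicates and pooled over replicates, and the authors called peaks with HOMER against IgG above limits of enrichment and normalized reads. The HNF4α list was also filtered on the *Hnf4α* knockout. They deposited 1 list per factor, with positions, and for HNF4α a score, which is the authors' HOMER score. The HDAC3 and PROX1 lists share identical co-bound peaks, so the classes carry the authors' classification, and each holds 3 empty lines, which were left out. Depth per library is unknown. No deposited fold change or p-value was used.

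The centre of each peak was placed against GENCODE vM1 on NCBIM37, which is mm9. A TSS was that of a protein-coding transcript, and counting every transcript of protein-coding genes gives 256 members in place of 230. Motifs were sought as consensus letters, since HOMER was not used here. Shares carry 95% Wilson intervals, limits for a count of 0 are 3 counts of the total, and differences Newcombe intervals. Differences between classes were tested by Pearson's chi-square, uncorrected and two-sided, and the 20 motifs were adjusted by Benjamini-Hochberg within a comparison. The comparison with PROX1-only promoters, the E-box alternatives and 3 gene lists were added after the data were seen. The members and all lists were chosen with earlier results of these data known. Genes named were the members on the gene lists, those under the 5 highest HNF4α scores, those with 2 members and those at the limit, and RevDR2 members with at most 2 mismatches, of which there were 0. The other genes named were chosen after their values were seen. They are RevDR2 members with 3 mismatches, RORE members, the lowest HNF4α score and genes with both kinds of peak. E-box members that are printed, plotted or named as covered by HNF4α were chosen in the same way. Sequences are of mm9, whole peaks only where no UTR base is annotated. Results at 1 member are not reported here. The code was tested on simulated overlaps, motifs and tables. Python 3.11.15, scipy 1.17.1, numpy 2.4.6, pandas 2.3.3, pysam 0.24.0, samtools 1.23.1 and matplotlib 3.10.9 were used.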

Additional observations from a re-analysis of the deposited data

How the results depend on the processing

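Of 124 repeats under another choice, 104 kept direction and side of the 0.05 threshold (unadjusted p), or for counts stayed within 1.5 times. HNF4α coverage, CpG-island-like windows and E-boxes kept both against co-bound promoters in every repeat run, with ranges of −45.0 to −22.0, 8.23 to 30.6 and 3.96 to 15.6 points. The causes of the changes below were not tested. Within CpG-island-like windows the HNF4 consensus gave −7.56 points against co-bound promoters and −1.39 against distal peaks, RevDR2 gave −4.03 against distal peaks, all 3 past the threshold before, C/EBP turned to 4.44 against co-bound promoters, and the E-box turned to −2.78 against distal peaks, of which 16 were left. With 1 mismatch fewer, the HNF4 consensus gave −0.254 against distal peaks, C/EBP −0.00686 and RevDR2 −0.0631 against co-bound promoters. In 100 bp windows the HNF4 consensus gave −3.78 against distal peaks, RevDR2 −0.196 against co-bound promoters and C/EBP −0.100 against distal peaks. With 2 kb around a TSS, RevDR2 gave 3.71 against co-bound promoters (now past the threshold) and −3.34 against distal peaks (no longer past it), C/EBP 3.06 against distal peaks (now past), and centres within 100 bp and downstream of the TSS 4.43 (now past) and −1.10. With 500 bp, C/EBP gave −4.57 against co-bound promoters (no longer past) and centres within 100 bp −3.34, and with 1 peak per gene −2.22. With HNF4α scores above the median, coverage against distal peaks was 1.74 points. The member count ran from 164 at 500 bp to 303 at 2 kb. No paired analysis was possible because replicates were pooled before the lists were made.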

Other observations

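Members were counted on lists of lysosomal genes and of autophagy and endosome fusion genes. These lists were written after the data were seen, overlap in content with the genes that prompted them, and have no test. The lysosomal list held 69 genes, not all of which encode proteins of the lysosome itself. Of these 69 genes 7 had an HDAC3-only promoter peak (10.1%), beside 1.14% of all protein-coding genes, and 6 a co-bound promoter peak (8.70%), beside 6.25% of all. They were *Ctsa*, *Dpp7*, *Spns1*, *Cln3*, *Psap*, which encodes the saposin precursor, *Cln6* and *Lmbrd1*, which exports cobalamin from lysosomes. An E-box was in 4 of the 7. None of the 7 peaks touched an HNF4α peak, which 18.3% of all members did, but 7 peaks are too few to tell a difference from that share. Of 41 autophagy and endosome fusion genes 7 had a member (17.1%) and 1 a co-bound promoter peak (2.44%). They were *Gabarap*, *Uvrag*, *Vps11*, *Zfyve26*, *Zfyve1*, *Atg10* and *Atg4d*, with an E-box in 4.

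Of 33 PPARα target genes, listed at the same time, 7 had a member (21.2%) and 13 a co-bound promoter peak (39.4%). The shares over all protein-coding genes were 1.14% and 6.25%. The 7 genes with a member were *Angptl4*, an inhibitor of lipoprotein lipase, *Acadl*, *Acadvl*, *G0s2*, *Lipe*, *Plin5* and *Retsat*. All but *Angptl4* and *Retsat* were already counted on the lipid droplet or fatty acid oxidation lists, so this count is not independent of theirs. An E-box was in 1 of the 7. The *Angptl4* member lay 22 bp downstream of the TSS. The 32 genes with both an HDAC3-only and a co-bound promoter peak include the urea cycle gene *Arg1* and *Tdo2*, which starts tryptophan breakdown.

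The share of HDAC3-only peaks that lay at promoters, 19.0%, stood beside 7.91% of co-bound peaks and 7.60% of PROX1-only peaks. By chromosome it ran from 6.67% on chromosome 15 to 30.9% on chromosome 9. Chromosome X had 1 member.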
